A study of Mus musculus with 6 samples.

Results

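The genes described here are the Eph receptors and their ephrin ligands, the Slit ligands and their Robo receptors, and the netrins with their receptors Dcc, Neo1 and the Unc5 family. They were taken by symbol from the platform annotation, which names them on 82 of 45037 probe sets, for 40 genes. Of these, 28 genes had a probe set with a mean intensity of at least 50 in at least 1 group and entered the fit of 11821 genes. The symbol rule also takes Unc50 and Unc5cl, which are not netrin receptors, and the classes below leave them out.

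Messenger RNA was pulled down with tagged ribosomes (translating ribosome affinity purification, TRAP) from the cortex of untreated mice that carry a bacterial artificial chromosome (BAC). In the first group the BAC uses the control regions of S100a10 (line ES691), and in the second those of Glt25d2, now named Colgalt2 (line DU9), with 3 biological replicates and 3 arrays each. Both lines were backcrossed for 3 to 5 generations from FVB to C57BL/6, RNA was amplified in a 2-cycle kit from 15 ng, and neither the ages of the mice nor any pooling are stated in the labels. The series' design text presents both groups as cortical pyramidal cells and adds that the S100a10 transgene also marks cells that are not neurons.

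Ephrins are ligands fixed to the cell surface. Ephrin-A proteins hang on a lipid anchor and mainly bind EphA receptors, ephrin-B proteins cross the membrane and mainly bind EphB receptors, and both sides of the contact can signal. Slit proteins are secreted and repel growing axons through Robo receptors, while netrins attract axons through Dcc and Neo1 and repel them where Unc5 receptors take part. In the cortex these systems are known for steering corticospinal, callosal and thalamic axons, and several members stay on in mature neurons, astrocytes and vessels.

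Each driver gene was highest in its own line. S100a10 averaged 15486 ± 2417 in S100a10 arrays and 3237 ± 179 in Glt25d2 arrays, and Colgalt2 averaged 11.6 ± 0.198 in S100a10 arrays and 1077 ± 263 in Glt25d2 arrays (SD, n = 3 each). The sum over 6 measured pyramidal neuron markers was 11752 to 12255 in S100a10 arrays and 6662 to 9124 in Glt25d2 arrays. All 3 markers of subcerebral projection neurons were lower in all 3 scalings, with sums of 4886 to 6194 in S100a10 arrays and 17552 to 19725 in Glt25d2 arrays. The sum over 6 oligodendrocyte markers was 9202 to 15668 in S100a10 arrays and 17746 to 23977 in Glt25d2 arrays, and 2 of the 6 passed as lower. Markers of other cells moved with the groups as well. The sum over 11 of 12 genes of mural cells and fibroblasts was 22877 to 27306 in S100a10 arrays and 350 to 535 in Glt25d2 arrays. Only 4 of 9 endothelial genes were measured, and their sum was 180 to 192 in S100a10 arrays and 829 to 1688 in Glt25d2 arrays. The endothelial genes Pecam1, Flt1, Kdr, Tek and Cdh5 were not measured. In such pooled material fewer cells of a type and less RNA per cell cannot be told apart, and the part of these cell types in the results below was not tested.

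A pair of features of the arrays bear on every member. The deposited values are scaled differently in the groups, with array medians of 35.5 to 35.8 in S100a10 and 20.4 to 21.3 in Glt25d2, and the median gene differed by 0.56 (log2, S100a10 minus Glt25d2). After quantile normalization that median was -0.018, and with each array centred on its own median it was -0.21. A difference is therefore called below only where its adjusted p from limma (Benjamini-Hochberg over all genes, threshold 0.05) passed with the same sign in all 3 scalings, unless another rule is named. The other feature is Glt25d2 replicate 3, in which 10 of the 28 members (35.7%) lay over 4-fold below the mean of replicates 1 and 2, against 993 of all 11821 genes (8.4%). It was the lowest of the 6 arrays for 25 of the 28 members, so the members' differences are also given without it. Exact values recur between arrays of a group as well, in 0.979% of probe sets for S100a10 and 46.8% for Glt25d2. Among the latter are those used for Efna3, Epha3, Epha8 and Ntn5, both dimmer probe sets of Efnb1 and the second of Dcc. Those used for Anks1, Abl1 and Itsn1 are among them too. Where values recur, the spread between replicates is understated, and the SE and p may be too small.

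By their brightest probe sets the 3 measured ephrin-A genes rose in S100a10 cells, and no other member rose in all 3 scalings. Dimmer probe sets of Efnb1 and Dcc also passed as higher in all 3 with all arrays, and a second probe set of Efna3 did not. The upstream sequences of Efna2, Efna3 and Efna5, which were called in the same direction, are shown with that of Epha3. Epha3 is an EphA receptor that differed the other way in part of the fits. Each is the run of 250 bases before the gene's outermost RefSeq start in GRCm38.p6, on the gene's strand, with every match to the GC box GGGCGG or its reverse complement CCGCCC in capitals. They come from chr10:80179232-80179481 on the plus strand for Efna2, and on the minus strand from chr3:89322940-89323189 for Efna3, chr17:62881318-62881567 for Efna5 and chr16:63864176-63864425 for Epha3.
Efna2: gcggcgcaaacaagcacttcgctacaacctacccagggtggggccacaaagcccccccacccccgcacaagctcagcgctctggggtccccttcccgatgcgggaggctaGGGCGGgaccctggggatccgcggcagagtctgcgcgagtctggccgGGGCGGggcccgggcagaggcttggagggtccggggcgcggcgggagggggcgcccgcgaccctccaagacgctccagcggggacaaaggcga
Efna3: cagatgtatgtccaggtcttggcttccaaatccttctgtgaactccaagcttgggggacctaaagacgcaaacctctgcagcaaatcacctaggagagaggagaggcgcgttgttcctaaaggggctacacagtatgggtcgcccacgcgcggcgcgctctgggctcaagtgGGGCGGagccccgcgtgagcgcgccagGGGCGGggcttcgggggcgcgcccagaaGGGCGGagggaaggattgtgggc
Efna5: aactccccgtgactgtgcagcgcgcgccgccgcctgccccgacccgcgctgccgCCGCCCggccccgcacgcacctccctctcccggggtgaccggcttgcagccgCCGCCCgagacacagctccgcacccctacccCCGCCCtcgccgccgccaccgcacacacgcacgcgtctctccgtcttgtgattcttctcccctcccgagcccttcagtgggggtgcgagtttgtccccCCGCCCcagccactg
Epha3: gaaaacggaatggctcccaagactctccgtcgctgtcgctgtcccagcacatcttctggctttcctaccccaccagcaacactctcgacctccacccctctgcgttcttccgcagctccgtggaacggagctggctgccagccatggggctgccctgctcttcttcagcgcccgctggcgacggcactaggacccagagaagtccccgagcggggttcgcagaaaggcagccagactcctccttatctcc
The GC box was found 2 times before Efna2, 3 times before Efna3, 4 times before Efna5 and 0 times before Epha3. GC bases made up 73.6%, 63.6%, 74.8% and 62.8% of these runs in that order, against a median of 52.4% over all 32851 windows. At least 1 GC box lay in 32.7% of all windows and in 29 of 40 windows (72.5%) of the 35 member genes found in the table. The letters TATAAA or TTTATA were in none of the 4 runs and in 12.4% of all windows. A match is a run of letters and not a binding site, and any link of these sequences to the differences was not tested.

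Efna5 encodes an ephrin-A that repels axons of many projections, thalamic ones included. Its probe set read 922, 905 and 856 in the S100a10 arrays and 451, 341 and 287 in the Glt25d2 arrays. The groups did not overlap, and the difference was 1.34 (SE 0.18, limma adjusted p = 0.00198), or 0.72 after quantile normalization and 0.57 after centring. Efna3 is an ephrin-A known in mice from astrocyte processes around hippocampal synapses, where it meets Epha4. It read 472, 446 and 570 in S100a10 arrays and 164, 164 and 117 in Glt25d2 arrays. The log2 difference was 1.75 (SE 0.18, limma adjusted p = 7.37e-04). The lowest S100a10 array was again above the highest Glt25d2 array, and the difference was 0.99 after quantile normalization. Efna2, an ephrin-A known from topographic maps of the visual system, read 241, 341 and 301 in S100a10 arrays and 101, 90.3 and 68.5 in Glt25d2 arrays. Its difference was 1.77 (SE 0.20, limma adjusted p = 0.00103), or 0.92 after quantile normalization. Glt25d2 replicate 3 was 1.37- to 1.41-fold below its group mates for these 3 genes, less than for most members, and without it the differences were 1.61 for Efna2, 1.59 for Efna3 and 1.19 for Efna5. All 3 passed in each of the 17 alternatives run, with adjusted p values of at most 0.0388.

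**Figure D1:**
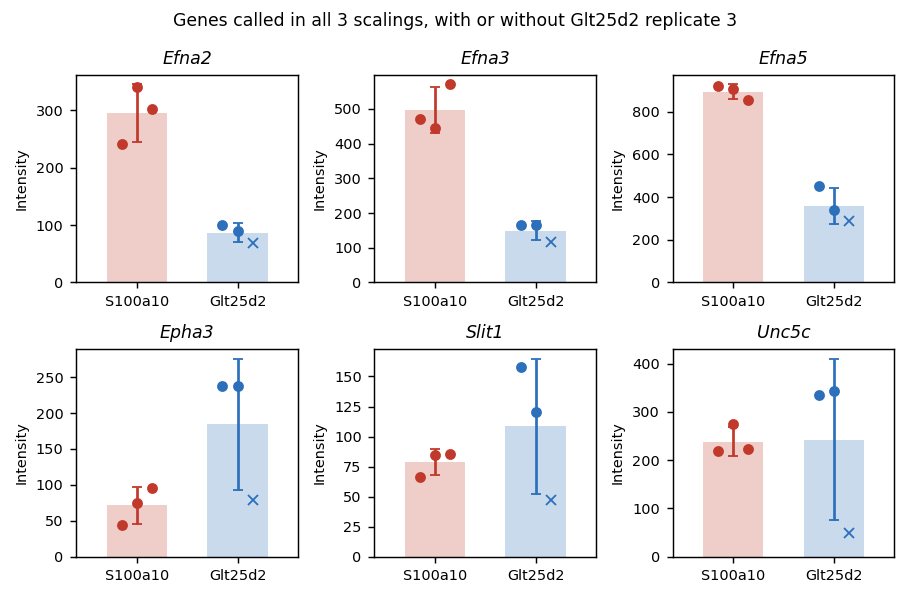
Intensity as deposited in each array (points; the cross is Glt25d2 replicate 3), with group means (bars) and SD (lines), for S100a10 and Glt25d2. All S100a10 points of Efna2, Efna3 and Efna5 lie above all Glt25d2 points, and for Epha3, Slit1 and Unc5c the cross lies far below the other Glt25d2 points.

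A second probe set of Efna3 was less clear. It read 338, 417 and 449 in S100a10 arrays and 254, 226 and 68.4 in Glt25d2 arrays, a difference of 1.34 that did not pass (limma adjusted p = 0.0812). Without Glt25d2 replicate 3 it was 0.74 as deposited and 0.070 after quantile normalization, so the size of the Efna3 difference depends on the probe set. Efna1 and Efna4, which neighbour Efna3 as consecutive protein-coding genes on chromosome 3 in the RefSeq table, stayed under 50 in every array, with highest values of 42.2 and 17.5.

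Against the background of all genes, the count of members called was not large. As deposited, 6 of 28 members (21.4%) passed as higher in S100a10 arrays, against 44.7% of all genes, and 0 passed as lower, against 4.59%. Beside the 3 ephrin-A genes the higher members were Ntn4, Ntn5 and Epha8. After quantile normalization 3 members were higher, against 18.7% of all genes, and Epha3 alone was lower, against 19%. After centring the same 3 and Epha3 passed, against 16.6% higher and 31.8% lower of all genes. Over all 3 scalings 3 members (10.7%) were higher, against 15.2% of all genes, and 0 were lower, against 4.59%. No member lower as deposited had an unadjusted p under 0.05 in limma. Without Glt25d2 replicate 3, 12 members were higher as deposited, against 55.8% of all genes, and 3 were lower, against 6.34%. After quantile normalization without it, 4 members were higher, against 24.1%, and 10 (35.7%) were lower, against 23.7%. After centring without it, 4 were higher, against 20.3%, and 13 (46.4%) were lower, against 39.3%. In all 3 scalings without it 3 were higher, against 19.2%, and Epha3, Slit1 and Unc5c were lower, against 6.34%. These were the same 3 that were lower as deposited without that array. The median difference of the members was 1.06, against 0.56 for all genes, and 0.30 without that array, against 0.51. The members that were tested passed the limit of 50 in at least 1 group, so a gene low in both lines is not among them, and the values just inside and outside it were the group means 50.5 for the dimmest probe set of Efnb1 and 49.8 for Unc5b.

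**Figure D2:**
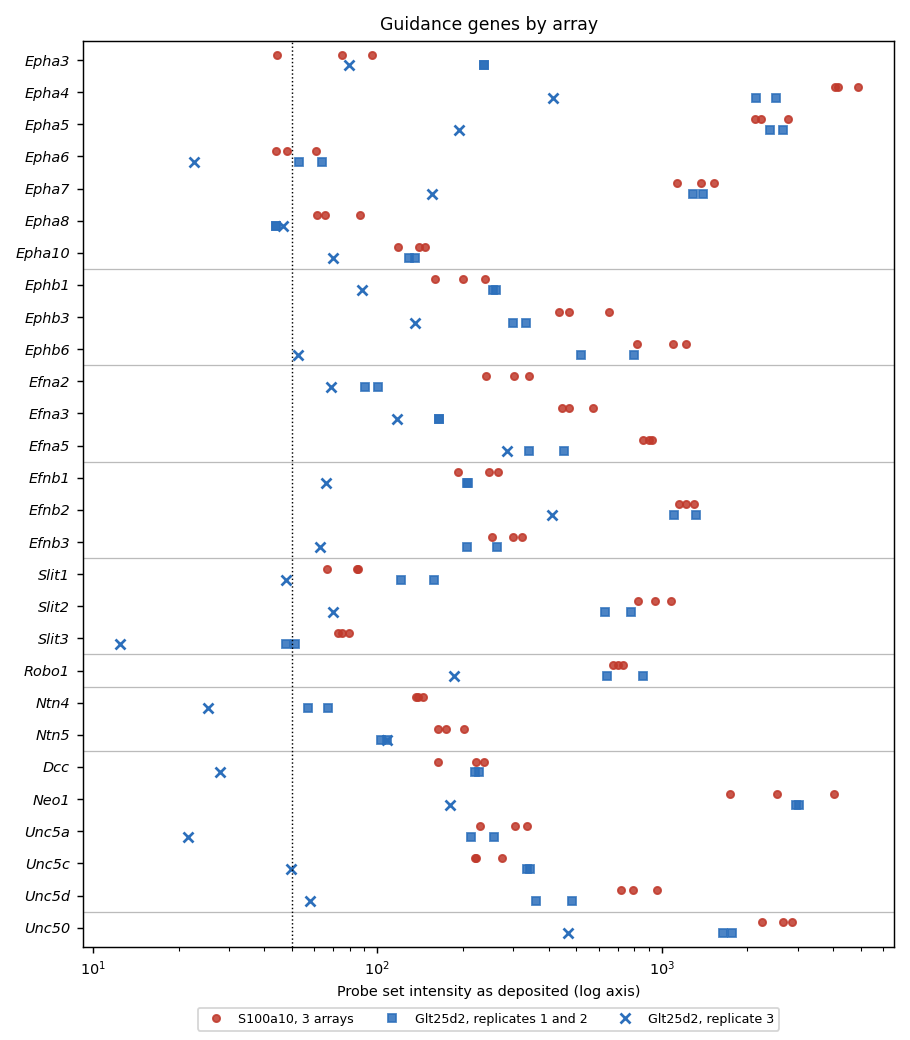
Intensity as deposited (log axis) of the 28 measured members, with the 3 S100a10 arrays as circles above the Glt25d2 arrays of the same gene (squares, and a cross for replicate 3); the dotted line is the limit of 50 and grey lines separate the classes. Levels of different genes come from different probe sets and are not to be compared. The cross is the lowest point in 25 of 28 genes.

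EphA receptors did not move as a class. Of 9 genes 7 were measured, with Epha1 and Epha2 under 50 in every array, and 1 passed as deposited. Epha3, a receptor with high affinity for Efna5, was lower in S100a10 arrays, at 44.5, 75.1 and 95.4, against 237, 237 and 79.3 in Glt25d2 arrays. The groups overlapped through Glt25d2 replicate 3, and the difference of -1.27 (SE 0.52) did not pass as deposited (limma adjusted p = 0.0941). It was -2.10 after quantile normalization (limma adjusted p = 0.0126) and -2.04 after centring (0.0192). Without Glt25d2 replicate 3 it passed in all 3 scalings, with -1.80 as deposited (SE 0.30, limma adjusted p = 0.00186). A second Epha3 probe set, near the limit of 50, read 51.6, 46.4 and 98.7 in S100a10 arrays and 41.3, 68.7 and 10.8 in Glt25d2 arrays. With all arrays it differed by 0.98 in the other direction (limma adjusted p = 0.306), and with the mean of both probe sets the difference was -0.14. Without Glt25d2 replicate 3 the second probe set differed by 0.21 as deposited, -0.62 after quantile normalization and -0.54 after centring, and passed in none of these.

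Epha4, which binds ephrins of both classes and is known for keeping corticospinal axons from recrossing the midline, read 4172, 4063 and 4875 in S100a10 arrays and 2147, 2510 and 415 in Glt25d2 arrays. The groups did not overlap, but the difference of 1.74 (SE 0.70) did not pass (limma adjusted p = 0.0892). Without Glt25d2 replicate 3 it was 0.91 (SE 0.14, limma adjusted p = 0.00136), 0.57 after quantile normalization as well (limma adjusted p = 0.0153), and 0.16 after centring, where it did not pass. Epha4 has 4 further kept probe sets, and none passed with all arrays. In 3 of them S100a10 replicate 2 stood low, at 866, 1336 and 255, against 1719, 3258 and 625 in replicate 1, whereas the probe set used here showed no such gap. After quantile normalization without Glt25d2 replicate 3 all 4 were negative, from -0.17 to -0.49, so the probe sets of Epha4 disagree. The dimmest passed as lower there, at -0.42 (limma adjusted p = 0.0259), and after centring, at -0.33 (limma adjusted p = 0.0433). As deposited without that array it passed as higher, at 0.42 (limma adjusted p = 0.0167).

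Epha5 and Epha7, receptors that bind ephrin-A ligands in developing maps of the forebrain, passed in none of the scalings with all arrays, and without Glt25d2 replicate 3 the call depended on the scaling. Epha5 read 2122, 2769 and 2225 in S100a10 arrays and 2392, 2659 and 193 in Glt25d2 arrays. Its difference without Glt25d2 replicate 3 was -0.10, with a 95% interval of -0.46 to 0.27. After quantile normalization it was -0.47 (limma adjusted p = 0.0519), and after centring it was -0.85 and passed as lower (limma adjusted p = 0.00327). Both further kept probe sets of Epha5 passed as lower in these rescaled fits. They differed by -1.07 and -0.93 after quantile normalization (limma adjusted p = 0.00376 and 0.0206) and by -1.17 and -1.12 after centring. As deposited without that array they differed by -0.42 and -0.37 and did not pass. Epha7 read 1127, 1523 and 1375 in S100a10 arrays and 1291, 1398 and 156 in Glt25d2 arrays. Without that array it differed by -0.013 as deposited (interval -0.39 to 0.36), by -0.47 after quantile normalization (limma adjusted p = 0.0536) and by -0.76 after centring, where it passed as lower (limma adjusted p = 0.00533). A further Epha7 probe set read 559, 435 and 635 in S100a10 arrays and 896, 1004 and 206 in Glt25d2 arrays, and without Glt25d2 replicate 3 it was lower by every scaling, at -0.82 as deposited (limma adjusted p = 0.00798), so the probe sets of Epha7 disagree. Another read 169.5, 193 and 217 in S100a10 arrays and 183, 194 and 150.1 in Glt25d2 arrays. With all arrays it differed by 0.14 as deposited and passed as lower after quantile normalization, at -0.68 (limma adjusted p = 0.0164), and after centring, at -0.63 (limma adjusted p = 0.0163).

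Epha8 passed as deposited only. It read 61.2, 65.2 and 87.0 in S100a10 arrays and 43.8, 43.8 and 46.4 in Glt25d2 arrays, with every Glt25d2 array under 50, so that it was at least 1.42-fold higher as deposited (limma adjusted p = 0.0167). The fitted difference, which is no bound, was 0.65, close to the shift of the median gene, and -0.28 after quantile normalization. It did not pass without Glt25d2 replicate 1 (limma adjusted p = 0.0524) or replicate 2 (limma adjusted p = 0.0577). Without replicate 3 it was 0.68 as deposited and -0.18 after quantile normalization. Epha10, a receptor without kinase activity, differed by 0.34 (SE 0.28) and Epha6 by 0.25 (SE 0.41). Neither passed with all arrays, and both took a negative sign after quantile normalization. Both passed as lower once rescaled without Glt25d2 replicate 3. Epha10 then differed by 0.031 as deposited, -0.75 after quantile normalization (limma adjusted p = 0.0068) and -0.72 after centring (limma adjusted p = 0.00384). Epha6 differed by -0.20 as deposited, -1.03 after quantile normalization (limma adjusted p = 0.00259) and -0.95 after centring (limma adjusted p = 0.00318).

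Of 4 EphB receptors with a probe set naming them alone, which Ephb2 lacks, 3 were measured, and Ephb4, known from veins, stayed under 50 with a highest value of 37.8. Ephb3 read 435, 652 and 473 in S100a10 arrays and 332, 301 and 135 in Glt25d2 arrays. Its groups did not overlap, and the difference of 1.10 (SE 0.38, limma adjusted p = 0.058) lay just outside the threshold; without Glt25d2 replicate 3 it was 0.70 and passed as deposited (limma adjusted p = 0.0163), but it was 0.070 after quantile normalization as well. Ephb6, whose kinase is inactive, read 815, 1096 and 1216 in S100a10 arrays and 800, 521 and 52.4 in Glt25d2 arrays. Its difference of 1.88 carried an SE of 1.04, and without Glt25d2 replicate 3 it was 0.67 (SE 0.24, limma adjusted p = 0.0439) as deposited and 0.14 after quantile normalization. Ephb1, a receptor that acts in retinal axons at the chiasm, had overlapping groups at 159, 239 and 199 in S100a10 arrays and 256, 261 and 88.0 in Glt25d2 arrays. Its difference was 0.12 (SE 0.46) with all arrays and did not pass. With Glt25d2 replicate 3 left out it was -0.40 as deposited (limma adjusted p = 0.0956), and it passed as lower at -1.11 after quantile normalization (limma adjusted p = 0.00412) and -1.15 after centring (limma adjusted p = 0.00178).

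By their brightest probe sets none of the 3 ephrin-B ligands passed with all arrays, and without Glt25d2 replicate 3 the answer depended on the scaling. Efnb2, which also marks arteries, averaged 1222 ± 74.6 in S100a10 arrays and 942 ± 472 in Glt25d2 arrays (SD, n = 3 each), and without that array it differed by 0.021 as deposited (interval -0.30 to 0.34). It then passed as lower after quantile normalization, at -0.46 (limma adjusted p = 0.0307), and after centring, at -0.73 (limma adjusted p = 0.00356). Efnb3, a midline ligand of Epha4, averaged 292 ± 34.7 in S100a10 arrays and 177 ± 103 in Glt25d2 arrays, a difference of 0.95 (SE 0.55). Without replicate 3 it differed by 0.32 as deposited, -0.38 after quantile normalization and -0.43 after centring, and none of these passed. Efnb1 gave a split answer. Its brightest probe set read 192, 265 and 247 in S100a10 arrays and 209, 207 and 66.1 in Glt25d2 arrays, a difference of 0.71 that did not pass (limma adjusted p = 0.264). Without replicate 3 it was 0.16 as deposited, and it passed as lower at -0.55 after quantile normalization (limma adjusted p = 0.0404) and -0.59 after centring (limma adjusted p = 0.0174). A second read 150, 181 and 164 in S100a10 arrays and 55.5, 55.5 and 29.1 in Glt25d2 arrays, and another 52.7, 50.4 and 48.4 in S100a10 arrays and 17.6, 16.3 and 16.3 in Glt25d2 arrays. Both passed as higher in all 3 scalings of the fit over probe sets, with and without Glt25d2 replicate 3. The difference was 1.88 (SE 0.28) for the second, and no fold is given for the other, since every Glt25d2 array was under 50. With the mean of its probe sets Efnb1 differed by 1.39 and passed (limma adjusted p = 0.00623).

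**Figure D3:**
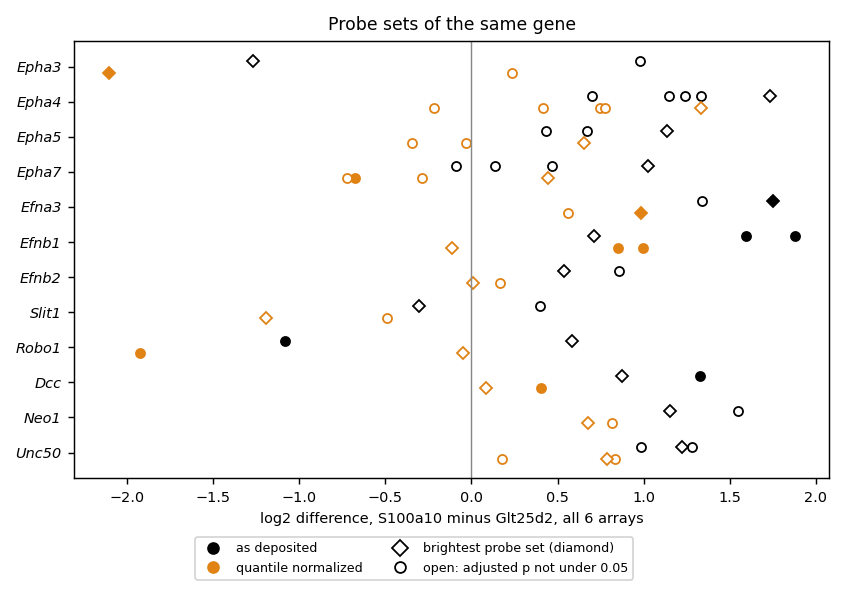
Log2 difference of S100a10 minus Glt25d2 (all 6 arrays) for each kept probe set of the 12 members with more than 1, as deposited (black) and quantile normalized (orange); diamonds are the brightest probe sets, filled symbols passed. For Efnb1, Robo1 and Dcc a dimmer probe set passed in both where the brightest did not, and for Epha7 a dimmer one passed as lower after quantile normalization.

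Of the Slit ligands, Slit1, which is expressed by cortical neurons, was lower in S100a10 arrays without Glt25d2 replicate 3. It read 66.3, 84.8 and 85.5 in S100a10 arrays and 158, 121 and 47.6 in Glt25d2 arrays. With all arrays the groups overlapped and the difference was -0.30 (SE 0.46, limma adjusted p = 0.60), whereas without replicate 3 it was -0.82 (SE 0.18, limma adjusted p = 0.00618) and passed in all 3 scalings. Its second probe set differed as deposited by 0.40 with all arrays and by 0.022 without replicate 3, and neither passed. Without replicate 3 it passed as lower once rescaled, at -0.79 after quantile normalization (limma adjusted p = 0.0198) and -0.73 after centring (limma adjusted p = 0.0167). Slit2, the Slit that repels callosal and corticofugal axons from the midline, read 828, 1074 and 947 in S100a10 arrays and 779, 630 and 69.9 in Glt25d2 arrays. The groups did not overlap, but neither the difference of 1.54 (SE 0.94) nor that of 0.43 without replicate 3 passed (limma adjusted p = 0.222 and 0.0525). Slit3, also known from vessels and mesenchyme, read 72.4, 75.1 and 79.7 in S100a10 arrays and 51.4, 47.7 and 12.4 in Glt25d2 arrays, and passed as deposited only without replicate 3, at 0.61 (SE 0.12, limma adjusted p = 0.0036), against -0.25 after quantile normalization as well.

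Robo1 was the only Robo receptor measured. Robo2, Robo3 and the endothelial Robo4 stayed under 50 in every array, with highest values of 10.6, 9.02 and 26.1. The brightest Robo1 probe set read 675, 728 and 700 in S100a10 arrays and 639, 857 and 186 in Glt25d2 arrays, and without Glt25d2 replicate 3 it differed by -0.079 as deposited (interval -0.44 to 0.29). It then passed as lower at -0.62 after quantile normalization (limma adjusted p = 0.0136) and -0.83 after centring (limma adjusted p = 0.00374). A dimmer probe set lay at 38.7, 39.5 and 39.8 in S100a10 arrays and at 107, 106 and 50.5 in Glt25d2 arrays. There the groups did not overlap (limma adjusted p = 0.0328), and with every S100a10 array under 50 no fold is given. This was the 1 member probe set of 48 that passed as lower in all 3 scalings with all arrays, against 4.39% of all probe sets, and 6 passed as higher, against 14% (44.2% as deposited alone). In the fit without Glt25d2 replicate 3, 5 passed as higher, against 18.4%, and 5 as lower, against 5.99%. Both probe sets are named Robo1 in the annotation, and which transcripts they read is not known from the files.

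Netrins were sparse. Ntn1 and Ntn3 stayed under 50 in every array, with highest values of 35.9 and 6.36. Ntn4, a netrin of basement membranes that is also known from cortical layer 4, read 137, 144 and 139 in S100a10 arrays and 57.0, 67.0 and 25.3 in Glt25d2 arrays. The groups did not overlap, and the difference was 1.61 (SE 0.37, limma adjusted p = 0.0152). It was 0.73 after quantile normalization (limma adjusted p = 0.145), and it did not pass without S100a10 replicate 1, 2 or 3 (limma adjusted p = 0.056, 0.0572 and 0.0564). With Glt25d2 replicate 3 left out it was 1.18 as deposited (limma adjusted p = 2.30e-04), 0.34 after quantile normalization (limma adjusted p = 0.0685) and 0.43 after centring (limma adjusted p = 0.0233). Ntn5 read 163, 174 and 201 in S100a10 arrays and 108, 103 and 108 in Glt25d2 arrays, which differed by 0.75 (SE 0.11, limma adjusted p = 0.00294), a value that turned to -0.11 after quantile normalization and to -0.021 once centred. With Glt25d2 replicate 3 left out it was 0.76 as deposited and -0.024 after quantile normalization. The Ntn5 difference as deposited was thus about that of the median gene.

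The netrin receptors carried the deepest gap in Glt25d2 replicate 3. Neo1, the neogenin receptor of netrins and repulsive guidance molecules, read 1737, 4022 and 2538 in S100a10 arrays and 3035, 2951 and 179 in Glt25d2 arrays. Dcc, the main attractive netrin receptor, read 163, 237 and 222 in S100a10 arrays and 227, 220 and 27.8 in Glt25d2 arrays. Unc5a read 229, 306 and 335 in S100a10 arrays and 257, 214 and 21.7 in Glt25d2 arrays. In each, replicate 3 alone separated from the other 5 arrays, by 16.7-fold, 8.03-fold and 10.8-fold against its group mates, and no difference passed with all arrays. Without replicate 3 Dcc differed by -0.13 as deposited and passed as lower at -0.84 after quantile normalization (limma adjusted p = 0.0129) and -0.88 after centring (limma adjusted p = 0.00503). Neo1 differed by -0.20 as deposited and -0.56 after quantile normalization, and passed as lower after centring, at -0.95 (limma adjusted p = 0.0365). Unc5a differed by 0.29 as deposited, -0.41 after quantile normalization and -0.46 after centring, and passed in none of these.

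Without that array, 2 of the Unc5 genes that mediate repulsion moved in opposite directions as deposited. Unc5c was lower at 219.5, 274 and 222 in S100a10 arrays, against 336 and 343 in Glt25d2 replicates 1 and 2, with 49.6 in replicate 3. The difference without replicate 3 was -0.52 (SE 0.14, limma adjusted p = 0.0163) and passed in all 3 scalings, while with all arrays it was 0.41 (SE 0.78, limma adjusted p = 0.68). Unc5d, known from upper-layer cortical neurons, read 721, 789 and 960 in S100a10 arrays and 361, 483 and 57.7 in Glt25d2 arrays. It differed by 0.97 without replicate 3 (SE 0.18, limma adjusted p = 0.00334), or 0.39 after quantile normalization as well (limma adjusted p = 0.126). Unc5b, known from vessels, reached 62.8 at most and did not pass the limit on group means. A second probe set of Dcc read 111, 122 and 126 in S100a10 arrays and 51.6, 51.6 and 40.6 in Glt25d2 arrays. It passed as higher in all 3 scalings with all arrays, at 1.33 (SE 0.14, limma adjusted p = 6.92e-04) as deposited and 0.41 after quantile normalization (limma adjusted p = 0.0497). Without Glt25d2 replicate 3 it passed at 1.21 as deposited and 0.46 after centring, but not at 0.36 after quantile normalization (limma adjusted p = 0.0637). There the brightest Dcc probe set passed as lower, at -0.84, so the probe sets of Dcc disagree.

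**Figure D4:**
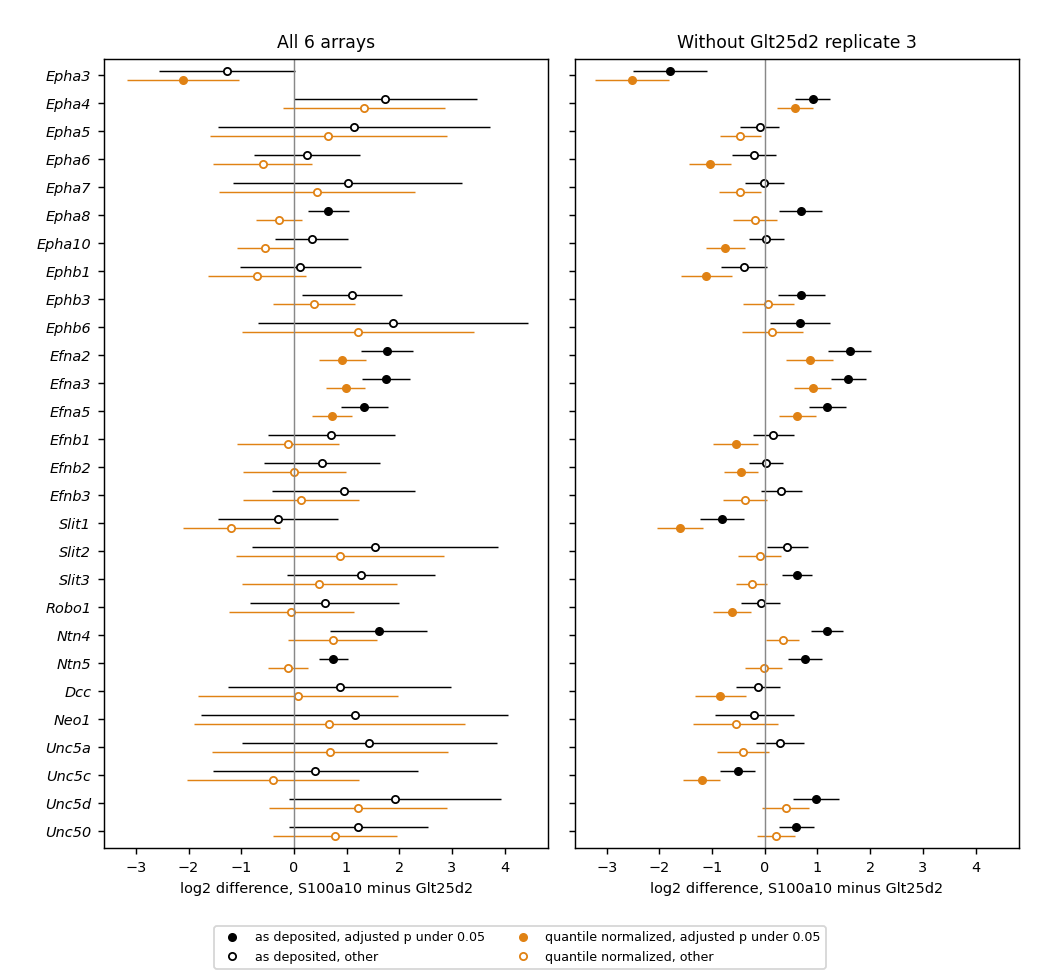
Log2 difference of S100a10 minus Glt25d2 with its 95% interval for each measured member, with all 6 arrays (left) and without Glt25d2 replicate 3 (right), as deposited (black) and quantile normalized (orange); filled points passed. Intervals are narrower in the right panel for most genes, though not for Epha8 and Ntn5, and Efna2, Efna3 and Efna5 stay above 0 in every case.

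The gap in Glt25d2 replicate 3 differed among the classes. On the log2 scale its median was -3.01 for the 5 netrin receptors, -1.995 for the 3 Slit genes, -1.99 for Robo1, -1.65 for ephrin-B, -1.58 for EphA and -1.55 for EphB receptors, -0.63 for netrins and -0.48 for ephrin-A, against 0.070 for all genes. The members called as deposited were at most 2.44-fold below their group mates in this array, and those not called at least 1.89-fold below. Among proteins that act with these systems inside or at the cell, the same median was 0.10 for 23 genes of Eph signalling, -0.25 for 14 of Slit and Robo signalling and 0.023 for 17 of netrin signalling. In these lists 1 of 23, 5 of 14 and 3 of 17 genes lay over 4-fold below, against 8.4% of all genes. Some cell type markers moved with this array too: 4 of 7 astrocyte genes lay over 4-fold below, with a median of -2.47. Of 7 interneuron genes 3 did, though the median of the 7 was 0.22. Of 6 pyramidal neuron genes 0 did, and their median was 0.28. The summed astrocyte level was 13555 to 15664 in S100a10 arrays and 9373 to 14201 in Glt25d2 arrays. The single genes were mixed, with 2 of 7 higher and 2 lower in S100a10 arrays in all 3 scalings. The part of astrocytes in the members' values was not tested. In the S100a10 group a shallower shift was seen in replicate 1, which lay below the mean of replicates 2 and 3 for 27 of 28 members, with a median of -0.29 against 0.030 for all genes. No member lay over 4-fold below its group mates in any S100a10 array.

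**Figure D5:**
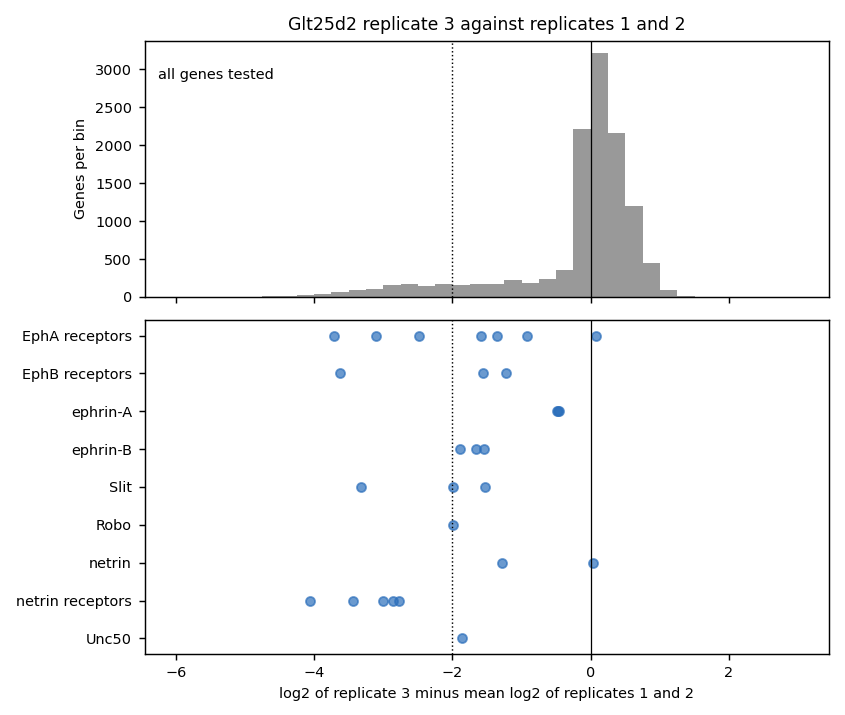
Log2 intensity of Glt25d2 replicate 3 minus the mean of Glt25d2 replicates 1 and 2, as a histogram of all 11821 genes (top) and as 1 point for each measured member by class (bottom); the dotted line marks 4-fold below. All 5 netrin receptors lie left of it and the 3 ephrin-A genes lie near -0.48.

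Of 23 partners of Eph and ephrin proteins, all measured, 3 were higher and 2 lower in S100a10 arrays in all 3 scalings, near the shares of all genes (15.2% and 4.59%), with a median of 0.28 against 0.56. Anks1, an adaptor that binds EphA receptors, read 450, 502 and 430 in S100a10 arrays and 59.5, 63.1 and 59.5 in Glt25d2 arrays, 2.92 higher on the log2 scale (SE 0.10, limma adjusted p = 1.52e-05). The tyrosine kinase gene Abl1 differed by 2.72 (SE 0.10), and Rgs3, a regulator of G protein signalling that binds ephrin-B, by 2.10 (SE 0.13). The exchange factor gene Itsn1 fell by 0.39 (SE 0.095). The fifth, the scaffold gene Pick1, is named beyond the rule and fell by 0.30 (limma adjusted p = 0.0448), but it did not pass in every scaling without Glt25d2 replicate 3.

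Of 17 Slit and Robo partners 14 were measured. In all 3 scalings 1 was higher and 1 lower, against 15.2% and 4.59% of all genes. Vasp, which promotes actin growth, was at least 5.71-fold higher in S100a10 arrays, with every Glt25d2 array under 50, whereas its relative Enah fell by 0.56 (SE 0.15). Of 21 netrin partners 17 were measured. Against the same shares of all genes, 2 were higher and 0 lower in all 3 scalings in limma. Both were ligands of Neo1: Rgmb averaged 1327 in S100a10 arrays and 332 in Glt25d2 arrays, 2.03 higher in log2 (SE 0.22, limma adjusted p = 8.40e-04), and Rgma averaged 50.5 in S100a10 arrays and 9.13 in Glt25d2 arrays, so that its fold is bounded only at 1.01.

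Unc50, taken in by its symbol, encodes a membrane protein whose worm counterpart is needed for trafficking of acetylcholine receptors. It read 2243, 2860 and 2669 in S100a10 arrays and 1636, 1763 and 467 in Glt25d2 arrays. It passed as deposited only without Glt25d2 replicate 3, at 0.60 (limma adjusted p = 0.00925), close to the median gene of that fit. Unc5cl stayed under 50, with a highest value of 3.56.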

How the data were processed

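RNA bound to tagged ribosomes from mouse cortex was measured on Affymetrix arrays, 3 for the S100a10 line and 3 for the Glt25d2 line. The deposited intensities, 1 per probe set and linear in scale, were made with GCRMA, as the submitters' processing notes name it (no version given there). Quantiles differ between the groups in the deposited table. Genes were named from the platform annotation, and the RefSeq table (GRCm38.p6) held the identifiers of all 82 member probe sets and changed 0 symbols. Values were taken to log2 without a pseudocount. A probe set entered where either group averaged 50 or more, 64 controls were left out, and each gene was represented by its brightest such probe set (by average log2). S100a10 minus Glt25d2 was fitted over 11821 genes in limma 3.58.1 under R 4.3.3, using lmFit and then eBayes. Tests were 2-sided, and p-values were adjusted by Benjamini-Hochberg over all genes (threshold 0.05). The fit was repeated after quantile normalization and after median centring, and each without Glt25d2 replicate 3. Further alternatives were the filter, a pseudocount of 16, a floor of 50, the replicate block, a trended prior, averaging the probe sets of each gene and each array left out. The limma step was tested on simulated data. Replicate numbers were not used as pairs, since deviations of same-numbered arrays correlated at -0.49, 0.27 and -0.26. Members, lists and tests were chosen with earlier results of these data known. The rule for naming genes takes every measured member, and of each partner list up to 4 genes with the largest differences among those passing in all 3 scalings. Pick1 and the dimmer probe sets fall outside it and were picked with values in view. A probe set list that the series' design text proposes was not used here. Plots and promoter windows used matplotlib 3.10.9, numpy 2.4.6 and pandas 2.3.3 under Python 3.11.15.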

Additional observations from a re-analysis of the deposited data

How the results depend on the processing

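Efna2, Efna3 and Efna5 passed with a positive sign under each of the 17 alternatives run. The 28 members kept their side of the threshold and their sign with a pseudocount of 16, with a trended prior and with the replicate number as a block, and so did all that could be tested with no filter or with both group means at 50 or more. The replicate block left the member counts at 6 higher and 0 lower and gave 4222 and 327 for all genes. Deviations of same-numbered arrays correlated at -0.49, 0.27 and -0.26, so the numbers do not pair the samples, and not every array correlated best with its own number. With no filter 18193 genes were tested, of which 8351 were higher and 1645 lower in S100a10 arrays. Of the 11821 genes of the main fit, 2210 were higher and 2245 lower after quantile normalization, and 1958 and 3761 after median centring. Without Glt25d2 replicate 3 these counts were 2854 and 2803 after quantile normalization, and 2396 and 4650 after median centring. Of the members, 12 were higher and 1 lower with no filter, where all 40 genes were tested, and 3 and 1 after quantile normalization or median centring. Without Glt25d2 replicate 3 the lower members numbered 10 after quantile normalization and 13 after median centring. Leaving out each array in turn gave 5 to 12 of the 28 members higher and 0 to 3 lower. Of all 11821 genes these fits gave 4246 to 6593 higher and 369 to 749 lower.

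Signs turned as follows, in log2 values. After quantile normalization they were Efnb1 -0.11, Epha10 -0.54, Epha6 -0.59, Epha8 -0.28, Ephb1 -0.70, Ntn5 -0.11, Robo1 -0.049 and Unc5c -0.39. After median centring they were Efnb1 -0.055, Efnb2 -0.23, Epha10 -0.43, Epha6 -0.52, Epha8 -0.12, Ephb1 -0.65, Ntn5 -0.021, Robo1 -0.18 and Unc5c -0.36. After quantile normalization without Glt25d2 replicate 3 they were Dcc -0.84, Efnb1 -0.55, Efnb2 -0.46, Efnb3 -0.38, Epha10 -0.75, Epha5 -0.47, Epha6 -1.03, Epha7 -0.47, Epha8 -0.18, Ephb1 -1.11, Neo1 -0.56, Ntn5 -0.024, Robo1 -0.62, Slit2 -0.095, Slit3 -0.25, Unc5a -0.41 and Unc5c -1.20. After median centring without that array, a fit added after the data were seen, they were Dcc -0.88, Efnb1 -0.59, Efnb2 -0.73, Efnb3 -0.43, Epha10 -0.72, Epha5 -0.85, Epha6 -0.95, Epha7 -0.76, Epha8 -0.069, Ephb1 -1.15, Ephb3 -0.054, Ephb6 -0.08, Neo1 -0.95, Robo1 -0.83, Slit2 -0.32, Slit3 -0.14, Unc50 -0.15, Unc5a -0.46 and Unc5c -1.27. Averaging the probe sets of each gene gave Robo1 -0.25 and Slit1 0.046, and values under 50 set to 50 gave Epha6 -0.053. With each array left out, the range was Dcc from -0.13 to 1.39, Epha5 from -0.098 to 1.79, Epha6 from -0.20 to 0.55, Epha7 from -0.013 to 1.57, Ephb1 from -0.40 to 0.39, Neo1 from -0.20 to 1.84, Robo1 from -0.079 to 1.02, Slit1 from -0.82 to 0.048 and Unc5c from -0.52 to 0.88. The rescaled fits move most genes toward Glt25d2 by construction, since they remove the shift of the median gene. Centring goes past this, and the median gene then stood at -0.21 with all arrays and -0.23 without Glt25d2 replicate 3. With 3 arrays a group, and several members close to 50, the number of arrays and the signal over background limit every value.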
